A study of Mus musculus with 26 samples.

Results

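The 10 genes described here encode S100 and annexin proteins: S100a4, S100a6, S100a8, S100a9, S100a10, S100a11, Anxa1, Anxa2, Anxa3 and Anxa5. They were taken by symbol from the 39179 gene entries counted in each library, all 10 were found, and all 10 were among the 16325 genes tested. S100a8, S100a9 and S100a11 passed the filter on low counts through their stroke libraries, so their counts in sham are near the limit of detection. RNA came from the cortex of C57BL/6J mice, a common inbred strain, taken 3 days after a stroke as the stroke core with the tissue around it, or after a sham operation. For the sham libraries the number of days after surgery is not given in the labels used here. The mice had been fed a high-fat diet with 60% of its calories from fat or a control diet with 6%. The 6-week arm held 6 high-fat and 4 control libraries after stroke, and 3 high-fat and 3 control libraries after sham. The 15-week arm held 6 high-fat and 4 control libraries after stroke, and no sham group of 15 weeks was analysed here. The labels name no transgene or deletion and give neither age nor batch, so time on the diet cannot be told apart from age or from separate handling of the 2 arms. Nothing says that each library is a separate animal, so p-values measure how far these libraries spread, which may be technical.

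S100 proteins are small proteins that bind calcium through paired EF-hand loops, work mostly as dimers, and occur only in vertebrates. S100A8 and S100A9 form calprotectin, an abundant cytosolic protein of neutrophils and monocytes that acts as an alarm signal on innate immune receptors once it leaves the cell. Annexins bind negatively charged membrane lipids when calcium rises, and several of them help to reseal torn membranes, to carry vesicles or to limit inflammation. S100A10 joins annexin A2 into a complex at the cell surface that binds plasminogen and its activators. In injured brain these genes are known from infiltrating leukocytes, reactive astrocytes, microglia, vessels and meninges.

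The S100 members all lie on mouse chromosome 3. In the reference gene table, 12 neighbouring S100 genes follow each other there in the order S100a1, S100a13, S100a14, S100a16, S100a3, S100a2, S100a4, S100a5, S100a6, S100a7a, S100a8 and S100a9, while S100a11 and S100a10 are neighbours at another place on that chromosome. Anxa5 is also on chromosome 3, Anxa3 on chromosome 5, Anxa2 on chromosome 9 and Anxa1 on chromosome 19. RefSeq promoter windows (build GRCm38.p6, from 250 bases before to 50 bases after the start of the gene) matched 8 of the 10 members, and no window was used for S100a10 and Anxa3. The windows of 4 members are shown because S100a8 and S100a9 are neighbours whose products form a complex, and because S100a11 and Anxa2 were the members whose window held the AP-1 letters. Each is written 5′ to 3′ on the strand of the gene, with matches to a searched motif in capitals. S100a8 lies at chr3:90668821-90669120 on the plus strand, S100a9 at chr3:90695672-90695971 on the minus strand, S100a11 at chr3:93520246-93520545 on the plus strand and Anxa2 at chr9:69453433-69453732 on the plus strand.
S100a8: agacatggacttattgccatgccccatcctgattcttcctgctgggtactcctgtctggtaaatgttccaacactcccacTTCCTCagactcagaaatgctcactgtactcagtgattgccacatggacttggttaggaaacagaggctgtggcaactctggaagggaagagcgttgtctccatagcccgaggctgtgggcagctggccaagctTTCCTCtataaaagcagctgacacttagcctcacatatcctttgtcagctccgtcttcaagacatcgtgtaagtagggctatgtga
S100a9: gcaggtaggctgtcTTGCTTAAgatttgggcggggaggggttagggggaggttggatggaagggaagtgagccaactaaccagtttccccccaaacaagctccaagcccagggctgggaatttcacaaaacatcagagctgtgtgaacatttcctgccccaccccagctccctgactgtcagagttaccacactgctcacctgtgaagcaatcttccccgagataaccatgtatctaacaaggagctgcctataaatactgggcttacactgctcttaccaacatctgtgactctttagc
S100a11: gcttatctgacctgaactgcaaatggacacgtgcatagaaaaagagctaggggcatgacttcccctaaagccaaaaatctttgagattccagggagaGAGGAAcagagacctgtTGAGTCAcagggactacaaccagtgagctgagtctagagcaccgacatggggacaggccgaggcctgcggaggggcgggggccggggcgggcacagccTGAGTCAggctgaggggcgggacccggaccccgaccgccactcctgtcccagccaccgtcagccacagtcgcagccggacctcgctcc
Anxa2: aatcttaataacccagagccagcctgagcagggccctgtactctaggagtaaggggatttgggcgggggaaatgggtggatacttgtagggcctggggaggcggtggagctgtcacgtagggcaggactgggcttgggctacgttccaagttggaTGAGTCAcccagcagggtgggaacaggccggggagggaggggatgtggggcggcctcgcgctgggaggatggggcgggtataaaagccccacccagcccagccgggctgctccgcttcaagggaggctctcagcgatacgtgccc
The motifs, searched on both strands, were AP-1 (TGANTCA), C/EBP (TTNNGCAA or TTNCGNAA), STAT (TTCNNNGAA), PU.1 (GAGGAA) and NF-kB (GGGNNTTCC).

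The AP-1 letters TGAGTCA stood in S100a11 at positions -136 to -130 and again at -38 to -32 relative to the start, and in Anxa2 at -95 to -89. These were 2 of the 8 members with a window, and 7.8% of all 32851 windows held the motif. The C/EBP letters stood in S100a9 at -236 to -229 and in Anxa1 at -143 to -136, which were 2 of 8 members beside 12.3% of all windows. The PU.1 letters, at positions -170 to -165 and -36 to -31 in S100a8 and at -153 to -148 in S100a11, were also found in S100a4 and Anxa1, thus in 4 of 8 members beside 28.3% of all windows. The STAT and NF-kB letters were in 0 of the 8 member windows, beside 8.3% and 5.8% of all windows. A match describes the letters only, and binding was not measured in these libraries.

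Gene counts per library lay between 11400882 and 16962682. Within groups, pairs of libraries differed by 3.34 to 70.2 times the chi-square that counting alone gives, so no pair was the same library counted again. Levels are given as CPM (gene counts scaled to a common library size, with TMM factors). Marker genes of cortical excitatory neurons summed to between 3120 and 5380 CPM in every library. The high-fat stroke library 1 and the control stroke library 3 of the 15-week arm had the lowest level of all 10 members in their groups. Each of them was no higher than the highest sham library in 6 of the 10 members, so results at 15 weeks are given with and without them. In the 6-week arm, high-fat stroke library 6 reached 948 CPM in summed choroid plexus genes and high-fat sham library 2 reached 270 CPM.

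Levels were first compared between stroke and sham within each diet at 6 weeks. Of the 7 genes with at least 10 counts in every sham library, 7 rose after stroke on the high-fat diet, in a comparison in which 23.1% of all genes tested changed and 14.2% rose. S100a8 and S100a11 passed too, which makes 9 of 10, but genes tested only because of their stroke counts were favoured to differ by that choice. On the control diet 2 of the 7, S100a4 and Anxa3, and 2 of all 10 rose, where 7.68% of all genes changed and 5.1% rose. The median log2 fold change of the 7 was 1.85 on the high-fat diet, from 0.59 to 2.93, and 1.1 on the control diet, from 0.32 to 2.65. Over all 10 the medians were 1.96 and 1.36. Over all genes tested the medians were -0.02 and 0.0. In 9 of 10 members on each diet, every stroke library was above every sham library, as for 15.8% of all genes with high-fat and 14.9% with control diet. These included all 7 genes with at least 10 counts in every sham library. The others among the 9 had passed the filter through their stroke counts. Without high-fat sham library 2, the rise on the high-fat diet kept 4 of the 9 calls (S100a4, S100a6, Anxa2 and Anxa3), where 1991 of all genes were called. Without sham library 3 it kept S100a11 in addition, where 2530 of all genes were called. The log2 fold changes of the lost genes without sham library 2 were 0.57 for S100a10, 1.7 for S100a11, 1.73 for Anxa1 and 0.61 for Anxa5, and none is given for S100a8, whose other 2 sham libraries had 0 counts. With sham library 2 and the choroid-plexus-rich stroke library both left out, the same 4 were called, where 1833 of all genes were. Of the 2 control-diet calls, 0 were left without stroke library 2 or any 1 sham library, where 303 to 465 of all genes were called. In bulk tissue, more cells of a type and more RNA per cell cannot be told apart.

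**Figure D1:**
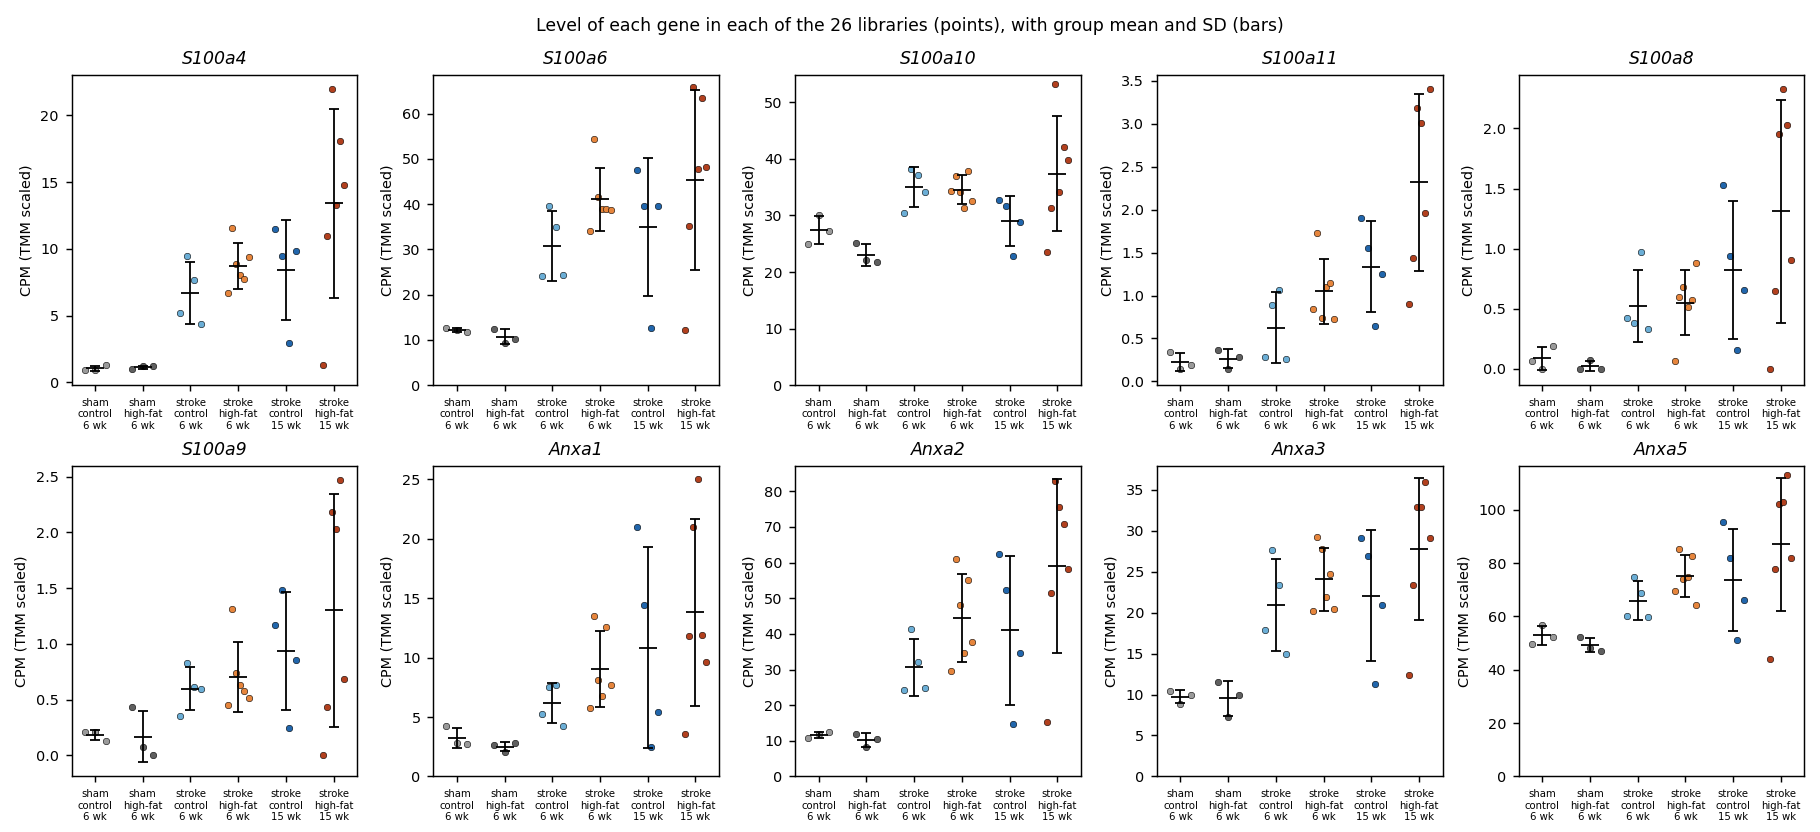
Level of each of the 10 genes in CPM (y axis, linear, own scale per gene) in each of the 26 libraries (points) by group (x axis), with the group mean (wide bar) and SD (error bar). S100a4 lay between 0.909 and 1.29 CPM in sham and between 4.41 and 11.6 CPM in 6-week stroke, while S100a10 and Anxa5 were already at 21.7 and 47.2 CPM or more in sham.

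S100a4, also called metastasin or fibroblast-specific protein, binds non-muscle myosin and is known from motile cells, fibroblasts and reactive astrocytes. It stood with control diet at 0.968, 0.909 and 1.29 CPM in sham and at 5.20, 9.49, 7.66 and 4.41 CPM in stroke. On the high-fat diet it stood at 1.01, 1.21 and 1.20 CPM in sham, and in stroke its lowest, median and highest values were 6.66, 8.44 and 11.6 CPM. All stroke libraries were above all sham libraries, with a wide gap on each diet. S100a4 rose by a log2 fold change of 2.65 ± 0.63 (SE) on the control diet (adjusted p = 0.0146, edgeR's quasi-likelihood test with Benjamini-Hochberg adjustment over all genes, as everywhere below) and 2.93 ± 0.60 on the high-fat diet (adjusted p = 0.00155). Those are changes of 6.26-fold and 7.60-fold. Leaving out control stroke library 2, or any 1 control sham library, took the adjusted p of S100a4 on the control diet above 0.05, and with voom it was 0.183 on the control diet and 0.0556 on the high-fat diet. In the annotation, 302 exon bases of S100a4 are shared with the gene Gm42674.

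S100a6, or calcyclin, is a membrane-associated S100 protein of astrocytes and dividing cells. Its control-diet levels were 12.6, 12.3 and 11.7 CPM in sham and 24.2, 39.5, 34.9 and 24.4 CPM in stroke. With high-fat diet they were 12.5, 9.29 and 10.2 CPM in sham, and 34.0, 38.9 and 54.4 CPM as lowest, median and highest in stroke. Stroke and sham libraries did not overlap on either diet. S100a6 rose on the high-fat diet, by a log2 fold change of 1.94 ± 0.41 (adjusted p = 0.00215). With control diet its log2 fold change was 1.33 ± 0.42 and missed the threshold (adjusted p = 0.0548), though it passed with DESeq2 (adjusted p = 0.0171).

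S100a10, or p11, is the partner of annexin A2 and differs from the other S100 proteins in that it no longer binds calcium. It was abundant without injury, at 25.0, 30.1 and 27.2 CPM in control sham and 25.2, 22.1 and 21.7 CPM in high-fat sham. In stroke it reached 30.4, 38.3, 37.2 and 34.1 CPM on the control diet and a lowest, median and highest of 31.4, 34.3 and 37.9 CPM on the high-fat diet. Although stroke lay above sham in every library, the gap was narrow, and on the control diet the lowest stroke value was close to the highest sham value. S100a10 rose on the high-fat diet by a log2 fold change of 0.59 ± 0.16 (adjusted p = 0.0114). With control diet the log2 fold change was 0.35 ± 0.17 (adjusted p = 0.219).

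S100a11, or calgizzarin, is a partner of annexins A1 and A2 in membrane repair. It was counted 5, 2 and 3 times in the control sham libraries and 5, 2 and 4 times in the high-fat sham libraries. Stroke libraries on the control diet held 4, 14, 12 and 4 counts, and those on the high-fat diet held 13, 29, 12, 19, 18 and 10. Control-diet libraries 1 and 4 thus overlapped with sham, whereas no high-fat stroke library did. Scaled by library size, the summed counts were 4.07 times higher in stroke on the high-fat diet (exact 95% interval 2.18 to 8.41) and 2.66 times higher on the control diet (1.29 to 6.04). Such intervals cover counting error only. S100a11 rose on the high-fat diet with a log2 fold change of 1.98 ± 0.56 (adjusted p = 0.0134), but not on the control diet (1.39 ± 0.65, adjusted p = 0.199). In the annotation 5 other genes have a transcript nearly identical to S100a11 (90% of 100 or more aligned bases), the closest being Gm12854 at 98.99%, so its level is uncertain.

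S100a8 and S100a9, the subunits of calprotectin, had few counts in every group. S100a8 was counted 1, 0 and 3 times in control sham and 0, 1 and 0 times in high-fat sham. A count of 0 allows up to 3 counts, or 0.21 to 0.216 CPM in those libraries. In stroke it was counted 6, 6, 11 and 5 times on the control diet and 1, 10, 11, 9, 9 and 12 times on the high-fat diet. Of the high-fat stroke libraries only library 1, with 1 count, fell within the sham range. The ratio of summed counts was 5.48 on the control diet (95% interval 1.92 to 21.5) and 23.0 on the high-fat diet (3.96 to 927), the latter resting on 52 counts against 1. The fitted high-fat log2 fold change of 4.10 ± 1.37 passed the threshold (adjusted p = 0.0325), and it depends on the prior count for a gene so near 0. With voom the adjusted p was 0.0877, and it was above 0.05 without any 1 of the sham libraries or without stroke library 2 or 6. With control diet it was 2.38 ± 1.13 (adjusted p = 0.207).

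S100a9 was counted 3, 3 and 2 times in control sham and 6, 1 and 0 times in high-fat sham. Control-diet stroke libraries held 5, 13, 7 and 9 counts and high-fat ones held 7, 22, 12, 11, 9 and 7. No stroke library fell to the sham range of its diet once scaled by library size, the closest being 0.453 against 0.432 CPM on the high-fat diet. The ratio of summed counts was 3.33 on the control diet (95% interval 1.51 to 8.32) and 4.3 on the high-fat diet (1.98 to 11.1). The log2 fold changes of 1.68 ± 0.97 and 2.04 ± 0.92 missed the threshold (adjusted p = 0.309 and 0.11), which made S100a9 the 1 member that passed on neither diet.

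Neutrophil genes were measured beside the calprotectin pair. The summed level of 17 neutrophil markers, of which 5 had enough counts to be tested, was 5.12 to 5.44 CPM in control sham and 4.74 to 6.20 CPM in high-fat sham. After stroke it was 10.4 to 16.6 CPM on the control diet and 15.1 to 25.1 CPM on the high-fat diet, with no overlap between stroke and sham. Ly6g, a defining surface marker of mouse neutrophils, was at 0 in all 6 groups, and 10 of the 17 genes were at 0 in each sham group. Among the 5 tested, 3 rose on the high-fat diet, where 14.2% of all genes rose. These were the collagenase gene Mmp8 and the receptor genes Cxcr2 and Csf3r. Mmp8 and Cxcr2 had 0 counts in both sham groups, so they entered the test through their stroke counts only. On the control diet 0 of the 5 rose, where 5.1% of all genes did. Beside those 14.2% and 5.1% of all genes, 11 of 12 monocyte and macrophage markers rose with high-fat and 6 with control diet. Of the 12, Ly6c2 and Ms4a4c had 0 counts in high-fat sham, which favoured a rise there. The sum of the 12 went from 59.1 to 66.9 CPM across all sham libraries to 139 to 338 CPM in control stroke and 206 to 464 CPM in high-fat stroke. The part of these cells in the levels of S100a8 and S100a9 was not tested.

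Anxa1, whose product limits leukocyte entry through formyl peptide receptors, stood at 4.22, 2.80 and 2.72 CPM in control sham and 2.67, 2.06 and 2.83 CPM in high-fat sham. Stroke values were 5.28, 7.51, 7.66 and 4.28 CPM on the control diet, and 5.76, 7.91 and 13.5 CPM as lowest, median and highest on the high-fat diet. The groups did not overlap, but control stroke library 4 was close to the highest sham library, at 4.22 CPM. Anxa1 rose on the high-fat diet by a log2 fold change of 1.85 ± 0.59 (adjusted p = 0.0278), and on the control diet its log2 fold change was 0.92 ± 0.61 (adjusted p = 0.381). The high-fat call was lost without the filter (adjusted p = 0.0583), with voom (0.0945), without stroke library 2 or 5, and without any 1 sham library (0.0721 to 0.117).

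Anxa2 encodes the plasminogen-binding partner of S100A10. It stood at 10.8, 11.9 and 12.5 CPM in control sham and 11.9, 8.23 and 10.5 CPM in high-fat sham. In stroke it reached 24.2, 41.3, 32.2 and 24.9 CPM on the control diet and 29.6, 43 and 61 CPM as lowest, median and highest on the high-fat diet. Every stroke library was well above every sham library. Anxa2 rose on the high-fat diet by a log2 fold change of 2.12 ± 0.45 (adjusted p = 0.00232), or 4.35-fold. On the control diet the log2 fold change of 1.39 ± 0.46 missed the threshold (adjusted p = 0.0687) and passed with DESeq2 (adjusted p = 0.0219). In the annotation 98 exon bases of Anxa2 are shared with the antisense gene Gm16144, and the strand setting of the counting is not given in the sources used here.

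Anxa3, an annexin of neutrophils and microglia, stood at 10.4, 8.88 and 9.90 CPM in control sham and 11.5, 7.23 and 9.91 CPM in high-fat sham. It reached 17.9, 27.6, 23.3 and 15.0 CPM in control stroke and 20.2, 23.3 and 29.2 CPM as lowest, median and highest in high-fat stroke. Stroke and sham did not overlap. Anxa3 rose on both diets, with log2 fold changes of 1.10 ± 0.31 on the control diet (adjusted p = 0.034) and 1.33 ± 0.30 on the high-fat diet (adjusted p = 0.00311). The control-diet call was lost without stroke library 2 or 3 or any 1 sham library, without the filter on low counts (adjusted p = 0.0811) and with voom (adjusted p = 0.0966). In the annotation 112 exon bases of Anxa3 are shared with Gm42603 on the same strand.

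Anxa5, the annexin used in the laboratory to stain dying cells, had the highest level per length among the 10 in sham, at 29.8 CPM per kb of exon on the control diet. Its levels were 49.7, 56.8 and 52.2 CPM in control sham and 52.2, 48.3 and 47.2 CPM in high-fat sham. In stroke they were 60.1, 74.9, 68.8 and 59.7 CPM on the control diet and 64.4, 74.5 and 85.1 CPM as lowest, median and highest on the high-fat diet. The stroke libraries were all higher, by a small margin. Anxa5 rose on the high-fat diet by a log2 fold change of 0.61 ± 0.20 (adjusted p = 0.0338), while the control-diet value was 0.32 ± 0.22 (adjusted p = 0.403). The high-fat call was lost without the filter (adjusted p = 0.0836), without stroke library 2, 3 or 5, and without any 1 sham library (0.0777 to 0.127).

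**Figure D2:**
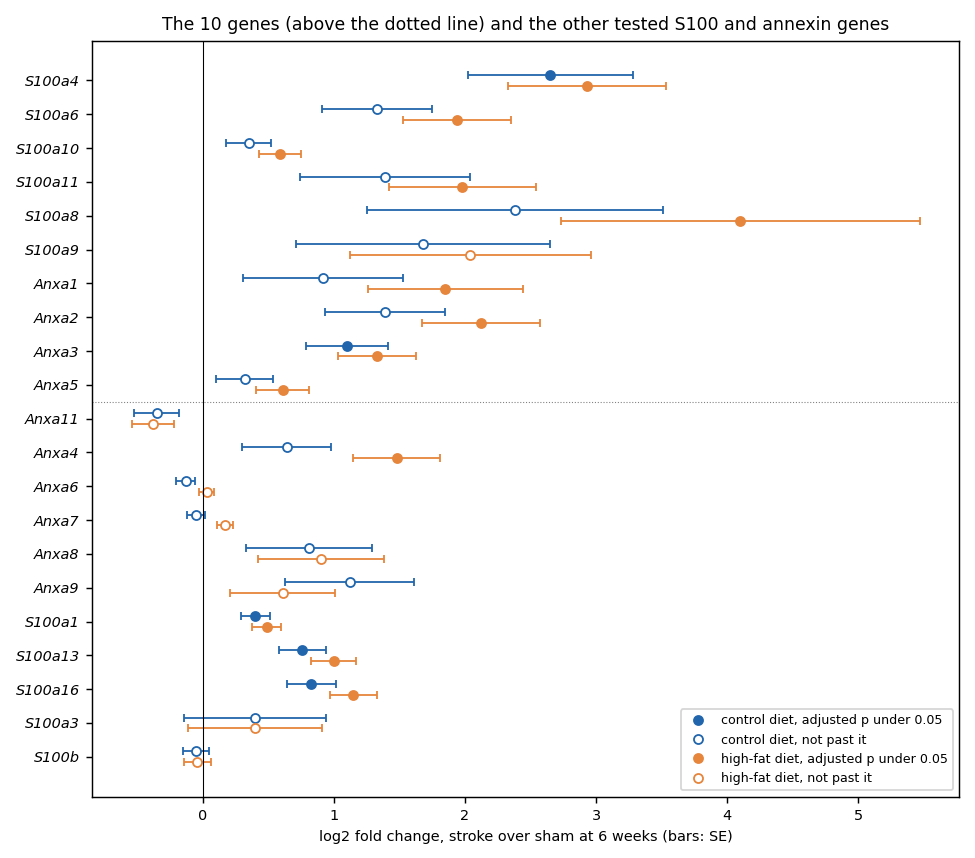
Log2 fold change of stroke over sham at 6 weeks (x axis) for the 10 genes and the 11 other tested S100 and annexin genes (y axis), on the control diet (blue) and the high-fat diet (orange), with SE as bars and filled points where the adjusted p was under 0.05. S100a8 and S100a4 stand farthest to the right, S100a10 and Anxa5 nearest to 0 among the 10, and S100b lies at -0.05 and -0.04.

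Whether the stroke response differed between diets was tested directly as an interaction. 0 of the 10 genes passed (adjusted p from 0.842 to 0.969), and 0 of all 16325 genes did, with 5.6% of all genes and 0 of the 10 members at an unadjusted p under 0.05. By DESeq2 and by voom, 0 members passed. The difference between the diets' log2 fold changes was above 0 in 10 of 10 members, from 0.23 for Anxa3 to 1.73 for S100a8, with a median of 0.47 beside 0.01 over all genes. The 95% intervals were wide, for example -0.57 to 2.04 for Anxa2 and -0.24 to 0.72 for S100a10. The counts of 9 and 2 called members are therefore not shown to differ between diets.

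Other genes of the S100 family were next examined. Of 12 S100 genes that are not among the 10, 11 were listed and 5 had enough counts to be tested. S100a1, S100a13 and S100a16 rose on both diets, where 5.1% of all genes rose with control and 14.2% with high-fat diet. S100a16 had log2 fold changes of 0.83 ± 0.19 (adjusted p = 0.0126) on the control diet and 1.15 ± 0.18 (adjusted p = 0.000304) on the high-fat diet. S100a13, needed for release of some proteins that lack a signal peptide, had 0.76 ± 0.18 (adjusted p = 0.0126) and 1.00 ± 0.17 (adjusted p = 0.000391). S100a1, best known as a calcium sensor of muscle, had 0.40 ± 0.11 (adjusted p = 0.031) and 0.49 ± 0.11 (adjusted p = 0.00217). S100b, the classical astrocyte S100 gene, had the highest level per length of the tested S100 genes in control sham, at 92.3 CPM per kb. Its log2 fold changes were -0.05 ± 0.10 and -0.04 ± 0.10 (adjusted p = 0.813 and 0.808), with 95% intervals of -0.27 to 0.16 and -0.24 to 0.16. S100a3 passed on neither diet.

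**Figure D3:**
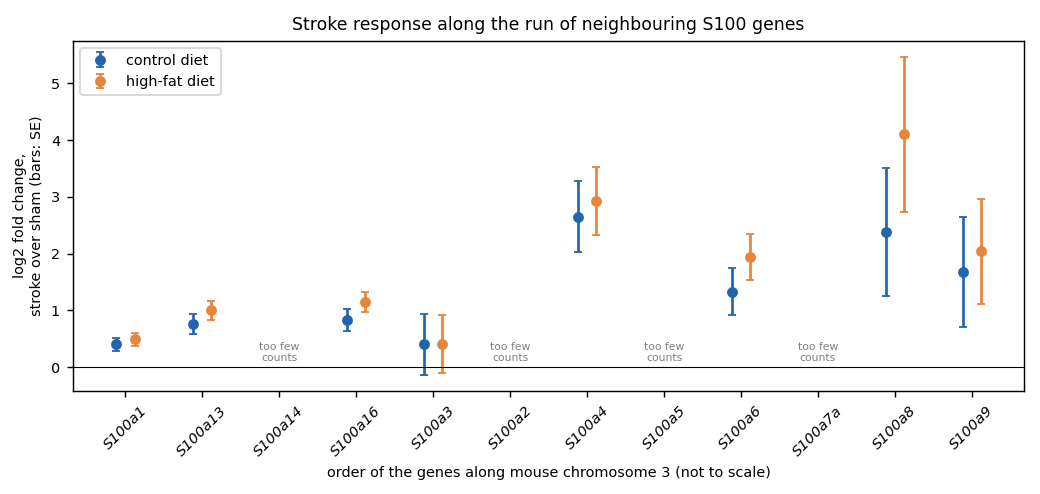
Log2 fold change of stroke over sham at 6 weeks (y axis, SE as bars) for the 12 neighbouring S100 genes in their order along chromosome 3 (x axis, not to scale), on the control diet (blue) and the high-fat diet (orange). S100a4, S100a6, S100a8 and S100a9 lie above S100a1, S100a13 and S100a16, and 4 genes had too few counts to be tested.

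Of the 8 annexin genes outside the 10, 6 were tested, and 1 rose on the high-fat diet, where 14.2% of all genes did. Anxa4 rose on the high-fat diet, by a log2 fold change of 1.48 ± 0.33 (adjusted p = 0.0027), with 0.64 ± 0.34 on the control diet (adjusted p = 0.256). The other 5, Anxa6, Anxa7, Anxa8, Anxa9 and Anxa11, passed on neither diet, with Anxa7 nearest (0.17 ± 0.06 on the high-fat diet, adjusted p = 0.0516). Anxa6, the large annexin with duplicated repeats, stood at 129 ± 8.15 CPM (SD, n = 3) in control sham and 118 ± 5.01 CPM (SD, n = 4) in control stroke. Its log2 fold changes were -0.13 ± 0.07 and 0.03 ± 0.06.

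Among receptors of calprotectin, 2 of 6 tested genes rose on the control diet, beside 5.1% of all genes. With high-fat diet 4 of 6 rose, beside 14.2% of all genes, and 0 of the 6 passed in the interaction of surgery and diet. Cd14, a co-receptor for lipopolysaccharide, rose by log2 fold changes of 1.56 ± 0.48 (adjusted p = 0.0462) and 2.28 ± 0.46 (adjusted p = 0.00139). Cd33 rose by 0.93 ± 0.28 (adjusted p = 0.0407) and 1.62 ± 0.27 (adjusted p = 0.000336). Tlr4 and its partner Ly96 rose on the high-fat diet, by 1.79 ± 0.36 and 1.52 ± 0.47, and did not pass on the control diet (adjusted p = 0.0569 and 0.325). Ager, encoding the receptor RAGE, and Bsg passed on neither. Cd14 is also among the monocyte markers above. The annexin A1 receptor genes Fpr1, Fpr2 and Fpr3 had too few counts to be tested, and Fpr3 was at 0 in all groups.

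Partners of annexin A2 and S100A10 in plasminogen activation are described in part, so no count over that list is given. The urokinase gene Plau (2.03 ± 0.52, adjusted p = 0.00769), its receptor gene Plaur (1.5 ± 0.47, adjusted p = 0.0245), the plasminogen receptor gene Plgrkt (0.52 ± 0.14, adjusted p = 0.0104) and the inhibitor gene Serpinb2 (4.20 ± 1.43, adjusted p = 0.0365) rose on the high-fat diet. Ahnak and Plat, the tissue plasminogen activator gene, passed on neither. Plg, which encodes plasminogen itself and is made mainly in liver, had at most 4 counts summed over any group.

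Of 5 S100 target genes, Myh9, encoding the non-muscle myosin heavy chain that S100A4 binds, rose on the high-fat diet (0.88 ± 0.27, adjusted p = 0.0213) and the other 4 passed on neither diet. Of 8 genes of membrane repair, the ferlin gene Myof rose on the high-fat diet (1.82 ± 0.47, adjusted p = 0.00796), and dysferlin, Dysf, had 0.83 ± 0.29 and 0.64 ± 0.27 (adjusted p = 0.0777 and 0.0822). Of genes for the recognition of phosphatidylserine, the lipid that annexin A5 binds, directly or through a partner protein, 8 were tested. Stab1 and Cd300lf rose on both diets and Gas6 and Axl on the high-fat diet, with Axl at 0.74 ± 0.21 (adjusted p = 0.0127). The medians of the phosphatidylserine list were 0.03 and 0.09. Beside these lists, 5.1% of all genes rose on the control diet and 14.2% on the high-fat diet.

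The ratio of S100a10 to Anxa2 counts within a library needs no scaling between libraries. In control sham its log2 values were 1.21, 1.34 and 1.12, thus more counts of S100a10 than of Anxa2, and in high-fat sham 1.08, 1.42 and 1.05. In control stroke they were 0.33, -0.11, 0.21 and 0.45. In high-fat stroke they ran from -0.72 to 0.22, with 5 of 6 libraries below 0. No stroke library reached the lowest sham library. The log2 ratio was 0.22 ± 0.24 (SD, n = 4) in control stroke and 1.22 ± 0.11 (SD, n = 3) in control sham, a difference of -1.0. With high-fat diet it was -0.32 ± 0.34 (SD, n = 6) against 1.18 ± 0.20 (SD, n = 3), a difference of -1.5. Exact two-sided permutation tests gave p = 0.0286 and p = 0.0119, each the smallest p that its group sizes allow. Adjusted over the 11 ratio comparisons these exact p-values were 0.105, so neither passed the threshold. Between diets in 6-week stroke the log2 ratio differed by -0.53 (exact permutation p = 0.0286, adjusted 0.105).

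**Figure D4:**
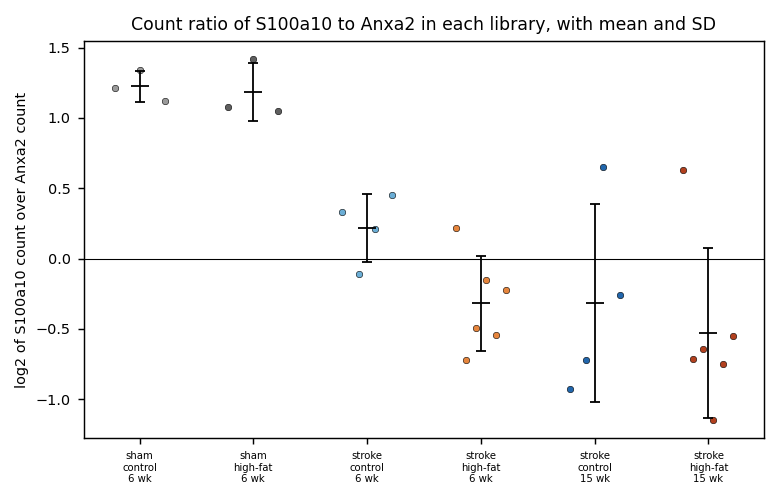
Log2 ratio of S100a10 counts to Anxa2 counts (y axis) in each library (points) by group (x axis), with group mean and SD. All 6 sham libraries lie at 1.05 or more, and 18 of the 20 stroke libraries lie at 0.45 or less, the others being control library 3 at 0.65 and high-fat library 1 at 0.63 of the 15-week arm.

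The S100a9 to S100a8 ratio was compared among stroke groups, since the sham counts were too few. Its log2 mean was 0.25 ± 0.80 (SD, n = 4) in 6-week control stroke, 0.51 ± 1.06 (SD, n = 6) in 6-week high-fat stroke, 0.27 ± 0.45 (SD, n = 4) in 15-week control stroke and -0.12 ± 0.32 (SD, n = 6) in 15-week high-fat stroke. Library 1 of the last group had 0 counts of both genes, so its value of 0.0 is set by the added 0.5, and without it the mean was -0.14 ± 0.36 (SD, n = 5). The 4 differences lay between -0.63 and 0.27, with exact permutation p from 0.138 to 0.971 and adjusted p from 0.38 to 0.971. Without that library the 15-week diet difference was -0.41 and the high-fat difference between 15 and 6 weeks was -0.65 (adjusted exact permutation p = 0.342 for both). Each gene had 0 to 39 counts per stroke library, and what difference these counts could show was not tested.

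Diet was then compared within each surgery group. In 6-week stroke the log2 fold change of high-fat over control diet ran from -0.02 for S100a10 to 0.79 for S100a11, with a median of 0.31 beside -0.01 over all genes, and 0 of the 10 genes passed (adjusted p from 0.667 to 0.977). In 15-week stroke it ran from 0.24 for Anxa5 to 0.79 for S100a11, with a median of 0.43 beside 0.0 over all genes, and again 0 of 10 passed (adjusted p from 0.569 to 0.828). The edgeR fit called 0 of all genes in each of the 2 comparisons. At an unadjusted p under 0.05 there were 0 and 2 members, beside 6.99% and 7.96% of all genes, and DESeq2 and voom called 0 members. The 2 at 15 weeks were S100a10 (0.36 ± 0.14, adjusted p = 0.569) and S100a11 (0.79 ± 0.36, adjusted p = 0.613). S100a10 stood at 32.7, 31.7, 22.9 and 28.9 CPM on the control diet and 23.6, 31.4, 53.3, 34.1, 42.1 and 39.8 CPM on the high-fat diet, so that high-fat libraries 1 and 2 lay inside the control range. S100a11 held 26, 23, 8 and 19 counts on the control diet and 11, 20, 41, 40, 31 and 45 on the high-fat diet. Without the 2 low libraries, 0 members and 0 of all genes were called at 15 weeks too. In sham the members ran from -1.61 for S100a8 to 0.20 for S100a11, with a median of -0.15 beside -0.01 over all genes. There 0 of 10 passed and 0 had an unadjusted p under 0.05, beside 0.0% and 4.79% of all genes. In 0 of the 10 genes was every high-fat library above every control library, in 6-week stroke, 15-week stroke or sham, beside 1.04%, 0.41% and 4.66% of all genes.

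The intervals show how large a diet difference these libraries could have missed. For S100a4 in 6-week stroke the log2 fold change of 0.38 ± 0.42 had a 95% interval of -0.49 to 1.25. For Anxa2 it was 0.53 ± 0.36, with an interval of -0.22 to 1.28. A log2 fold change of 1 is thus within the interval of both genes. The interval of the abundant Anxa5 was narrower, from -0.19 to 0.56.

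Time on the diet was compared within stroke, 15 against 6 weeks. On the high-fat diet the log2 fold changes were all above 0, from 0.11 for S100a10 to 1.26 for S100a8, with a median of 0.51 beside 0.01 over all genes, but 0 of the 10 passed where 2.35% of all genes changed. S100a11 came closest, at 1.13 ± 0.32 (adjusted p = 0.0628), from a median of 0.968 CPM at 6 weeks to 2.49 CPM at 15 weeks. S100a8 had 1.26 ± 0.53 (adjusted p = 0.209), its 15-week libraries holding 0, 9, 25, 31, 32 and 12 counts. These 2 were the members with an unadjusted p under 0.05, beside 17.7% of all genes. Of S100a4 the 15-week libraries held 1.32, 11, 22, 13.3, 18.1 and 14.8 CPM. High-fat library 1 of the 15-week arm was the lowest in each of these genes. It was set apart for its levels of these same genes, so values without it describe the other libraries and are no independent support. Without it, 3 members passed the threshold from 6 to 15 weeks, beside 8.01% of all genes: S100a4 (0.86, adjusted p = 0.0283), S100a8 (1.5, adjusted p = 0.0314) and S100a11 (1.29, adjusted p = 0.0129). Without it and control library 3 of that arm, 5 passed, beside 10.5% of all genes, with Anxa2 (0.62, adjusted p = 0.0468) and Anxa5 (0.36, adjusted p = 0.0304) in addition.

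Anxa2 at 15 weeks held 15.2, 51.4, 82.9, 75.5, 70.9 and 58.3 CPM on the high-fat diet, the first being library 1, and 62.3, 52.3, 14.6 and 34.6 CPM on the control diet. On the control diet 0 of 10 passed from 6 to 15 weeks, where 0.564% of all genes changed. At an unadjusted p under 0.05 there was 1 member, S100a11 (1.13 ± 0.46, adjusted p = 0.218), beside 16.8% of all genes, and DESeq2 and voom called 0. The log2 fold changes ran from -0.27 for S100a10 to 1.13 for S100a11, with a median of 0.38 beside 0.0 over all genes, and 0 members were called without the 2 low libraries. The difference of the diet effect between 15 and 6 weeks was tested as well, with 0 of 10 members and 0 of all genes called, with or without the 2 low libraries, 0 members and 4.85% of all genes at an unadjusted p under 0.05, and 0 members by DESeq2 and voom.

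The spread between libraries was wider at 15 weeks. In high-fat stroke the members' median SD of log2 CPM was 0.90 at 15 weeks and 0.34 at 6 weeks, and 10 of 10 members were wider at 15 weeks, beside 70.5% of all genes. Without library 1 the 15-week median was 0.38, with 8 of 10 wider beside 55.1% of all genes. In control stroke the medians were 0.87 and 0.39, with 9 of 10 wider beside 63.0% of all genes, and 0.27 without library 3, with 3 of 10 wider beside 47.4%. S100a4 shows the range: its highest 15-week high-fat library was 16.7 times its lowest, or 2.0 times without library 1, against 1.74 times at 6 weeks. These are descriptions, with no test.

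**Figure D5:**
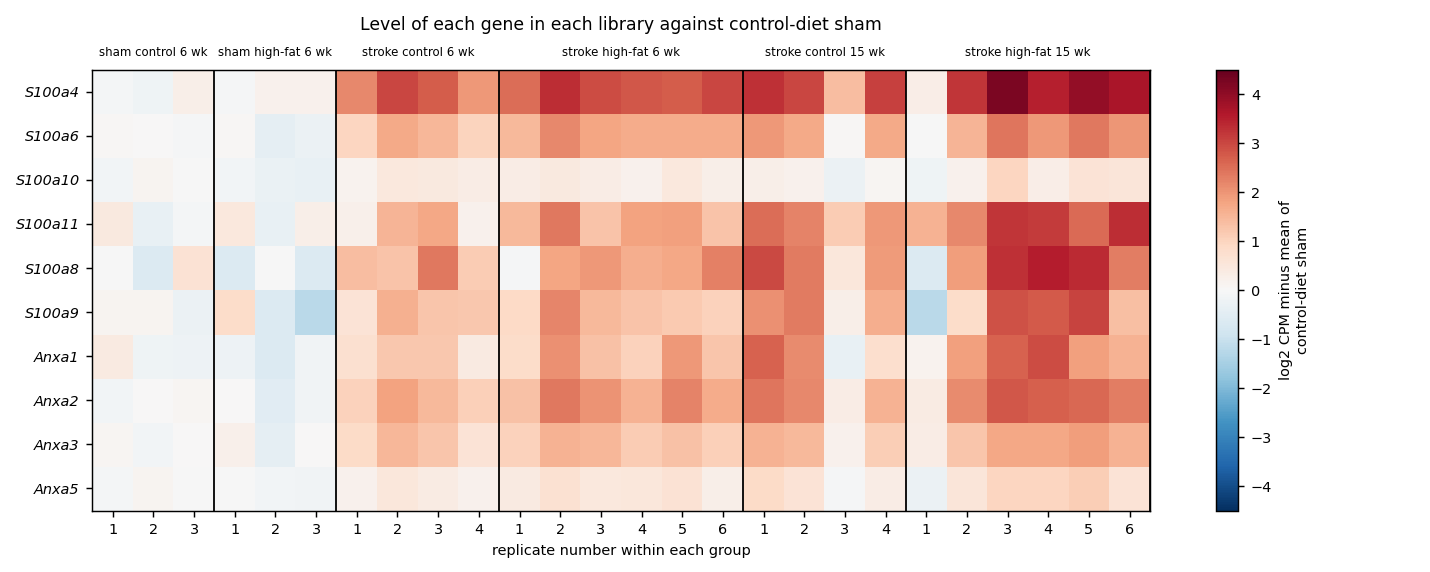
Level of each of the 10 genes (rows) in each of the 26 libraries (columns, by group and replicate number), as log2 CPM minus the mean of control-diet sham (red higher, blue lower). High-fat library 1 and control library 3 of the 15-week stroke groups have medians of 0.07 and 0.23 over the 10 genes, with S100a11 at 1.55 and 1.14, while values in the other stroke libraries run from -0.06 to 4.23 with a median of 1.57.

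Marker lists of several other cell types, but not all, moved with the 10 genes after stroke. Among all genes, 5.1% rose and 7.68% changed on the control diet, and 14.2% rose and 23.1% changed on the high-fat diet. In the oligodendrocyte, choroid plexus and T cell lists, 0 of 6, 0 of 6 and 0 of 1 tested genes were called on either diet. Reactive astrocyte genes rose in 8 of 9 on the control diet and 9 of 9 on the high-fat diet, activated phagocyte genes in 9 and 8 of 10, and homeostatic microglia genes in 7 of 7 on both. Lcn2 of the astrocyte list and Cd5l of the phagocyte list had 0 counts in high-fat sham, which favoured a rise there. Endothelial genes rose in 0 and 4 of 7 and fibroblast and meningeal genes in 0 and 5 of 9, and excitatory neuron genes fell in 0 and 5 of 8. The 5 blood cell genes (hemoglobins and Alas2) rose in 0 of 5 on the control diet and 5 of 5 on the high-fat diet, with median log2 fold changes of 0.49 and 1.18. Their sum was 132 to 159 CPM in control sham, 78.3 to 109 CPM in high-fat sham, 154 to 220 CPM in control stroke and 163 to 307 CPM in high-fat stroke. In sham their median log2 fold change of high-fat over control diet was -0.64, beside -0.01 over all genes. There 0 of the 5 passed the threshold, as did 0.0% of all genes. The part of blood in the members' values was not tested. Fibroblast and meningeal genes summed to 116 to 128 CPM in sham, 174 to 256 CPM in control stroke and 184 to 373 CPM in high-fat stroke, with no defining marker at 0. Several of the marker lists also followed the 10 genes in the 2 low libraries of 15 weeks. High-fat library 1 of the 15-week arm had 297 CPM in 9 summed reactive astrocyte genes and control library 3 had 463 CPM, where 6-week stroke libraries held 783 to 1610 CPM and sham libraries 137 to 167 CPM. Their summed excitatory neuron genes were 4990 and 5090 CPM, within the 4880 to 5380 CPM of sham and above the 3620 to 4560 CPM of 6-week stroke. Their summed neutrophil genes were 5.92 and 8.36 CPM. Activated phagocyte genes gave 1050 and 1060 CPM, against 967 to 1240 CPM in sham and 1210 to 2550 CPM in 6-week stroke. Such a sum gives most weight to its most abundant genes. Monocyte and macrophage genes gave 85.0 and 107 CPM, between the 59.1 to 66.9 CPM of sham and the 139 to 464 CPM of 6-week stroke. Homeostatic microglia genes gave 356 and 385 CPM, between the 272 to 311 CPM of sham and the 508 to 847 CPM of 6-week stroke. How much injured tissue each sample held was not measured, and the part of these cell types in the members' levels was not tested.

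Over all 26 libraries the 10 genes varied together. The Pearson correlation of log2 CPM between 2 members was lowest for S100a10 with S100a11 (r = 0.671) and highest for Anxa2 with Anxa3 (r = 0.98). After the group means were removed, the lowest was S100a8 with S100a11 (r = 0.595) and the highest S100a4 with S100a6 (r = 0.95). The libraries fall into sham and stroke and share the depth of each library, so these values are descriptions and carry no p. High-fat library 1 and control library 3 of the 15-week arm, lowest of their groups in all 10 members, are included in both sets of values. No typical correlation between other genes is given beside them, so they do not set these 10 genes apart. Among all tested genes outside both families, clones and predicted genes left out, the one most like S100a4 was Serpina3n (r = 0.988, and 0.97 after removal of group means), which is among the reactive astrocyte markers. Most like S100a6 was Arpc1b (r = 0.988), most like Anxa3 was Srgn (r = 0.99), most like Anxa2 was Vasp (r = 0.987) and most like Anxa1 was Enpp1 (r = 0.968), followed by the meningeal and fibroblast gene Lum (r = 0.967). Anxa5 was nearest to the endothelial gene Pecam1 (r = 0.974), but after removal of group means to Vwa5a (r = 0.968), followed by Itgam (r = 0.965). Which cells the 10 genes came from was not tested. The low-count genes had looser matches, with Iqgap1 for S100a8 (r = 0.938), then Cxcl1 (r = 0.936), Cmtm6 for S100a9 (r = 0.927) and Ampd3 for S100a11 (r = 0.94). S100a10 was nearest to Magt1, at r = 0.906 the loosest match of the 10.

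Ordered by level per length in control sham, the 10 genes ran from Anxa5 (29.8 CPM per kb of exon), S100a10 (22.7), S100a6 (8.91), Anxa2 (3.14), Anxa3 (2.67), S100a4 (1.81) and Anxa1 (1.11) to S100a11 (0.444), S100a9 (0.349) and S100a8 (0.126). In 6-week high-fat stroke the levels per kb were 42.3 for Anxa5, 30.0 for S100a6, 28.5 for S100a10, 14.9 for S100a4, 11.9 for Anxa2, 6.6 for Anxa3, 3.12 for Anxa1, 2.05 for S100a11, 1.35 for S100a9 and 0.796 for S100a8. S100a4 thus stood below Anxa2 and Anxa3 in sham and above them in stroke. These places are descriptions of group means, and the neighbouring means of S100a6 and S100a10 in stroke lie within the SD of S100a6 (6.99 CPM over a mean of 41.1 CPM, n = 6).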

How the data were processed

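RNA of mouse cortex was sequenced as stranded total RNA in paired ends, per the labels' protocols. The authors deposited raw counts of fragments per gene for each of the 26 libraries, with no normalization. The submitters' processing notes name Trim Galore, STAR, featureCounts, HTSeq and the build mm9, and how each was used is not given in the sources used here. Symbols came from a GENCODE table of gene names, which matched 37607 of the 39179 gene IDs. The 5 summary entries that name no gene held 45.69% to 58.16% of all counts of a library and were left out.

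Counts were tested with edgeR 4.0.16 in R 4.3.3, by the robust quasi-likelihood test with TMM scaling, 1 mean per group over all 26 libraries, filterByExpr with a minimum count of 10, and Benjamini-Hochberg adjustment over 16325 genes at 0.05. The SE was derived from the fold change and its F statistic, and is not given where p was above 0.9. Intervals use the t distribution. Promoters were searched for the motifs in RefSeq windows. Ratios within a library had 0.5 added to each count and were compared by exact permutation tests, two-sided. Gene copies were sought in the reference transcripts at 90% identity over at least 100 bases. Alternatives were RLE scaling, DESeq2 1.42.0, voom (limma 3.58.1), a minimum count of 50 or none, a non-robust fit, the compared groups alone, and leaving out libraries. The 10 genes and all lists were chosen with earlier results of these data known. Named were all 10 members, other S100 and annexin genes called after stroke, up to 4 genes of each pathway list with the smallest p, and the genes most like each member by Pearson correlation of log2 CPM. S100b, Anxa6, Anxa7 and some genes that did not pass were named in addition, after their values were seen. Of the list of annexin A2 and S100A10 partners, 1 gene is not reported here.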

Additional observations from a re-analysis of the deposited data

Results flagged for a closer look

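Of 40 combinations of a gene and a stroke group of 4 or 6 libraries, 3 held a library far from the others of its group by Dixon's test, and chance alone gives about 1 in 20. S100a6 stood at 54.4 CPM in library 2 of the 6-week high-fat stroke group, where the other 5 lay between 34.0 and 41.6 CPM. S100a9 stood at 1.31 CPM in the same library, on 22 counts, and at 0.453 to 0.739 CPM in the other 5. S100a8 stood at 0.969 CPM in library 3 of the 6-week control stroke group, on 11 counts, with the other 3 between 0.329 and 0.422 CPM. High-fat stroke library 2 was the highest of its group in 8 of the 10 genes and also had the highest summed neutrophil genes, at 25.1 CPM, and their part in these levels was not tested.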

How the results depend on the processing

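No paired analysis was possible because the labels give no replicate numbers that groups share. The number of the 10 genes that rose after stroke on the control diet, 2 at first, was 1 without the filter on low counts, 4 with the non-robust fit, 0 with voom and 4 with DESeq2. When only the compared groups were fitted, 7 members were tested and all 7 were called. Leaving out 1 library gave 0 to 3. All genes called there went from 1253 to 767 without the filter, 1321 with the non-robust fit, 469 with voom, 1792 with DESeq2 and 2453 with the compared groups alone. Leaving out 1 library gave 303 to 1448. On the high-fat diet the number went from 9 to 4 without the 2 libraries high in choroid plexus genes and to 6 with voom or without the filter, and leaving out 1 library gave 4 to 9. From 6 to 15 weeks of high-fat diet the number of members called went from 0 to 5 without the 2 low libraries, and leaving out 1 library gave 0 to 3. The cause was not tested. Of all results that count members called, the other settings gave 66 counts equal to the first or within 1.5 times of it. A further 5 moved by more, 1 fell to 0 and 1 rose from 0. Most comparisons called 0 members at first, so many of the 66 are 0 against 0 and say little about stability. A change from 9 to 6 also falls within that range.

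Some fold changes near 0 turned their sign. With voom the diet effect was -0.04 for S100a8 in 6-week stroke and -0.13 for S100a9 in 15-week stroke, and the 15-week against 6-week value of S100a6 on the high-fat diet was -0.01. Without the choroid plexus libraries the diet effect in 6-week stroke was -0.01 for S100a8 and 0.03 for S100a10, and in sham 0.24 for S100a9 and 0.15 for Anxa3. Leaving out 1 library, the diet effect in 6-week stroke ran from -0.05 to 0.54 for S100a8, from -0.01 to 0.47 for S100a9 and from -0.08 to 0.05 for S100a10. In sham it ran from -2.09 to 0.45 for S100a9, from -0.07 to 0.61 for S100a11 and from -0.17 to 0.15 for Anxa3. The 15-week against 6-week value ran from -0.08 to 0.32 for Anxa3 on the control diet and from -0.02 to 0.21 for S100a10 on the high-fat diet. The log2 ratio of S100a10 to Anxa2 ran from -0.16 to 0.03 for diet in sham and from -0.44 to 0.11 for diet in 15-week stroke. That of S100a9 to S100a8 ran from -0.26 to 0.3 for 15 against 6 weeks on the control diet and from -0.09 to 0.54 for diet in 6-week stroke. Depth limits S100a8, S100a9 and S100a11 in sham, where a library held 0 to 6 counts of each.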
